A study of Rattus norvegicus with 40 samples.

Results

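The 6 arrays described here measured total liver RNA of adult Sprague Dawley rats (125 to 150 g) 24 h after partial hepatectomy, with and without rapamycin. They were selected by their titles and are 6 of the 40 Rat Gene 1.0 ST arrays of the series. Rats were injected intraperitoneally with the solvent dimethyl sulfoxide (DMSO, 3 livers) or with 250 µg of rapamycin per 100 g of body weight (3 livers). The injection came 1 h before surgical removal of 2/3 of the liver, so every liver in both groups was regenerating and no liver without surgery was part of this comparison. The other arrays used below come from polysome RNA of the same hepatectomy model (3 and 3), from total RNA of adult rats fasted for 48 h, injected with the same doses and refed for 3 h (3 and 3), and from total RNA of fetuses injected on day 19 of gestation with DMSO or 50 µg of rapamycin and delivered on day 20 (4 and 4). The titles name them as biological replicates, and polysome RNA came from pooled polysome preparations. The comparison asks how mRNA abundance differed with rapamycin while the remnant liver regrew.

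Rapamycin binds the immunophilin FKBP12 and the complex blocks mTOR complex 1, the kinase that couples nutrient and growth factor signals to protein synthesis, nucleotide supply and growth. After removal of part of the liver, the quiescent hepatocytes of the remnant leave G0 together, replicate their DNA about a day later in the rat and then enter mitosis. Genes needed late in the cycle are transcribed in G2 from promoters that often carry CCAAT boxes, bound by NF-Y, and a cell cycle genes homology region (CHR), bound by the MuvB complexes with B-MYB and FOXM1.

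Arrays were alike in scale, with median log2 intensities of 7.16 to 7.22. The first principal component of the tested transcript clusters held 54.6% of the variance and placed all DMSO livers on one side (-4.72, -23.8 and -18.3) and all rapamycin livers on the other (18.9, 6.15 and 21.7). DMSO 1 and rapamycin 2 lay nearest each other on it. Hepatocyte markers were the brightest of the marker lists. Of 15 tested 0 rose and 0 fell, and their summed intensity was 182399 to 185666 in DMSO livers and 181831 to 186247 in rapamycin livers.

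Of 10860 transcript clusters tested, 544 passed the threshold (adjusted p below 0.05, limma, with the 12 hepatectomy arrays sharing 1 estimate of the spread), which is 5.01%. With the liver as a random block over total and polysome arrays, 770 passed, 228 rising and 542 falling. Abundance rose for 160 (1.47%) and fell for 384 (3.54%), and 294 (2.71%) were larger than 1.5-fold, 62 of them rises (0.571%) and 232 falls (2.14%). With cyclic loess scaling the split was 212 rises and 300 falls. Counted as genes with 1 cluster each, 511 of 10203 passed, 153 (1.5%) rising and 358 (3.51%) falling. The groups did not overlap for any of the 511, against 30.8% of all clusters. This follows largely from their selection by p on the same arrays. The count rested on few livers: it was 14 when the 6 arrays were fitted alone, where 506 of the 511 had an adjusted p below 0.1, and 847, 10 and 5 without DMSO 1, 2 and 3, and 4, 542 and 8 without rapamycin 1, 2 and 3. Of the 511 genes, 4 (Mocos, Psat1, Nnmt and Tmem97) passed in all 6 of these omissions, 3 (Ror1, Pklr and Aqp1) in 4 of them, 2 in 3, 347 in 2, 124 in 1 and 31 in none.

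**Figure D1:**
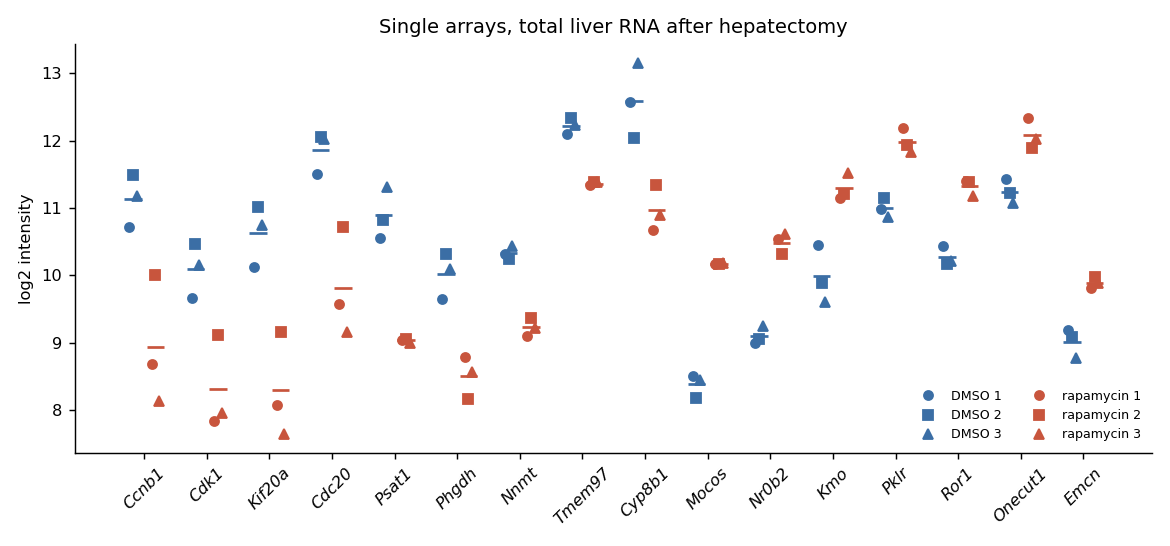
Log2 intensity of 16 genes on each of the 6 total RNA arrays (blue, DMSO; red, rapamycin; circle, square and triangle, livers 1, 2 and 3 of a group; bars, group means). The mitotic genes on the left spread widely among rapamycin livers, with liver 2 highest (Cdk1 7.84, 9.12 and 7.96), whereas Mocos stood at 10.17, 10.17 and 10.18 in the same livers.

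Genes of mitosis made up most of the 30 largest falls. A list of 71 tested genes of mitosis held 60 that fell and 0 that rose, against 3.51% of all genes falling, and its median log2 difference was -1.5 beside -0.01 over all genes tested. Of the 30 largest falls, 24 belonged to it. Every one of the 71 differences was negative and the groups did not overlap for 69, rapamycin lower, against 17.8% of all clusters. None of the 60 passed the threshold when DMSO 2, DMSO 3, rapamycin 1 or rapamycin 3 was left out or when the 6 arrays were fitted alone. 63 of the list passed without DMSO 1 and 69 without rapamycin 2, and 66 had an adjusted p below 0.1 in the fit of 6 arrays. The list median stayed between -1.85 and -1.25 over the 6 omissions.

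Promoters of mitotic genes that fell are shown because the members moved together and the list was not chosen on sequence. For the 3 cell cycle genes and the securin gene below, the 150 bases before the annotated start are written 5′ to 3′ in the direction of the gene, with CCAAT (or its reverse complement ATTGG) and TTTGAA or TTCGAA (or their reverse complements) in capitals. They were read from RefSeq sequence of assembly GRCr8, minus strand, at chr2:33655226-33655375 for Ccnb1 (cyclin B1), chr8:79981659-79981808 for Ccnb2 (cyclin B2), chr10:28406327-28406476 for Pttg1 (securin, which holds sister chromatids together until anaphase) and chr5:137255800-137255949 for Cdc20 (the activator of the anaphase-promoting complex).
Ccnb1: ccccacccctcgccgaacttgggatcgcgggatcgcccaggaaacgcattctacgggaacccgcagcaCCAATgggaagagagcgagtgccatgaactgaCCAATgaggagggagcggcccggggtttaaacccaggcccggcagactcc
Ccnb2: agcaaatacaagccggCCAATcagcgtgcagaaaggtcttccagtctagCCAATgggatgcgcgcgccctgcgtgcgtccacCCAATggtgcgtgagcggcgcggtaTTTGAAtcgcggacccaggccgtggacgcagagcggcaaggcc
Pttg1: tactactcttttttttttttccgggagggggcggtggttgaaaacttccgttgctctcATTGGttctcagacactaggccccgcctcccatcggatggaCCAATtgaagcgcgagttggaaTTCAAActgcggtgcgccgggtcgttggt
Cdc20: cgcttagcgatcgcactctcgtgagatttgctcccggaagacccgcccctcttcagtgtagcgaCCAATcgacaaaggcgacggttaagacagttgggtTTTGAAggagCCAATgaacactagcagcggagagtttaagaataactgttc
The stretches of Ccnb1, Ccnb2, Pttg1 and Cdc20 held 2, 3, 2 and 2 CCAAT boxes, and all but that of Ccnb1 held 1 match to TTTGAA or TTCGAA. The letters TTTGAA or TTCGAA, searched on both strands from 250 bases before to 50 after the start, occurred in 45 of the 61 mitosis promoters in the table (73.8%). Among all tested genes with a promoter the share was 13.2%, and over all promoters of the same length it was 19.5%. CCAAT was found in 67.2% of the mitosis promoters and in 38.4% of those of tested genes, and 2 or more copies in 49.2% and 13.6%. Both motifs together occurred in 55.7% and 5.73%. By role the TTTGAA or TTCGAA share was 88.9% of 9 checkpoint and anaphase promoters, 80.0% of 15 kinetochore, 70.0% of 20 kinesin and spindle, and 61.5% of 13 cyclin and kinase promoters. In promoters of the DNA replication list 16.7% of 48 held TTTGAA or TTCGAA, and 37.5% held an E2F-type motif (TTTCGCGC, TTTGGCGC, TTTCCCGC or TTTGCCGC), which 3.28% of mitosis promoters and 3.95% of promoters of tested genes held. These are letter matches and not measured binding sites.

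Among cyclins, kinases and their regulators, 17 of 19 fell, with a list median of -1.64. The log2 intensity of Ccnb1 was 10.71, 11.49 and 11.18 with DMSO and 8.68, 10 and 8.13 with rapamycin, livers 1 to 3 in order. Cyclin B1 activates CDK1 at mitotic entry. Its groups were apart, with rapamycin 2 between the other rapamycin livers and the DMSO livers, and the difference was -2.19 ± 0.454 (SE, 3 livers per group; adjusted p = 0.0258, highest 0.106 over the omissions). With DMSO, Cdk1 stood at 9.66, 10.47 and 10.16 (log2 intensity), and with rapamycin at 7.84, 9.12 and 7.96. The order of the livers was the same at both ends, DMSO 1 lowest of its group and rapamycin 2 highest of its own, and Cdk1 fell by 1.79 ± 0.344 on the log2 scale. Cyclin B2 (Ccnb2, -2.12 ± 0.436) and Cdkn3 (-2.22 ± 0.338), a phosphatase that acts on cyclin-dependent kinases, fell by a like amount. The mitotic kinases Aurka (-1.81), Plk1 (-1.72), Aurkb (-1.65) and Nek2 (-1.64) fell by similar amounts, as did Bora (-1.73), the cofactor through which Aurora A activates Plk1. The transcription factors of this program, Mybl2 (-1.35) and Foxm1 (-1.24) fell too. The smallest falls were those of Wee1 (-0.49), the kinase that holds CDK1 inactive, and Cks1b (-0.37). Gtse1 (-1.16) and Cdc25b (-0.66) did not pass.

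All 21 tested genes for kinesins, spindle proteins and cytokinesis fell, with a median of -1.60. Kif20a gave 10.12, 11.01 and 10.75 on the DMSO arrays and 8.07, 9.16 and 7.64 on the rapamycin arrays, in log2 intensity. Kif20a, a kinesin of the central spindle, showed the largest fall of any called gene, -2.34 ± 0.408 (SE; adjusted p = 0.0199). Its values in rapamycin livers 1 and 3 lay more than 2 log2 units under the lowest DMSO liver, and that of rapamycin 2 lay about 1 unit under it. Ect2, the exchange factor that starts the contractile ring, had a difference of -2.20 ± 0.403, and Cep55, which recruits the machinery of abscission, one of -1.95 ± 0.341. The kinesins Kif22 (-1.94), Kif2c (-1.92), Kif4a (-1.75) and Kif11 (-1.52) fell, and so did Prc1 (-1.68), which bundles midzone microtubules. The smallest falls of the group were those of citron kinase, Cit (-0.60), and Kifc1 (-0.81).

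For the spindle checkpoint and anaphase, 7 of 10 fell (median -1.32). On the log2 scale Cdc20 measured 11.51, 12.06 and 12.02 in the DMSO group and 9.58, 10.71 and 9.16 in the rapamycin group. The 3 rapamycin values all lay below the 3 DMSO values, and Cdc20 fell by 2.05 ± 0.39. Securin (Pttg1) fell by 2.08 ± 0.408, and the checkpoint kinases Bub1 (-1.88), Ttk (-1.59) and Bub1b (-1.5) fell as well. The ubiquitin-conjugating enzymes Ube2c (-1.0) and Ube2s (-0.99) of the anaphase-promoting complex also fell. Bub3 (-0.38), Mad2l1 (-0.99) and Fbxo5 (-1.14) did not pass. Of 17 kinetochore and centromere genes 13 fell (median -1.33), led by Nuf2 (-1.93) and Ska3 (-1.85) of the microtubule attachment site, and including the centromeric histone Cenpa (-1.39) and the chromosomal passenger Birc5, or survivin (-1.56). Of 4 condensin and chromosome structure genes, Smc4 (-1.23) and Smc2 (-1.04) fell, while topoisomerase Top2a had a difference of -1.44 ± 0.385 (adjusted p = 0.052) and did not pass. As above, these calls were lost without DMSO 2, DMSO 3, rapamycin 1 or rapamycin 3.

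The livers of a group did not carry equal amounts of mitotic mRNA. The mean of the mitosis list was 9.54, 10.08 and 9.86 in DMSO livers 1, 2 and 3, and 8.19, 9.06 and 7.94 in rapamycin livers 1, 2 and 3. Rapamycin 2 was highest of its group for all 71 genes, and DMSO 1 was lowest of its group for 66. In refed adult livers, which had no surgery, the list mean was 6.46 to 6.51 with DMSO and 6.55 to 6.59 with rapamycin, so every regenerating liver given rapamycin stood above every refed liver. For all 71 genes the rapamycin mean after hepatectomy exceeded the DMSO mean of refed liver, for 60 of them by more than 1 log2 unit. In bulk tissue, fewer dividing cells and less mRNA per dividing cell cannot be told apart.

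**Figure D2:**
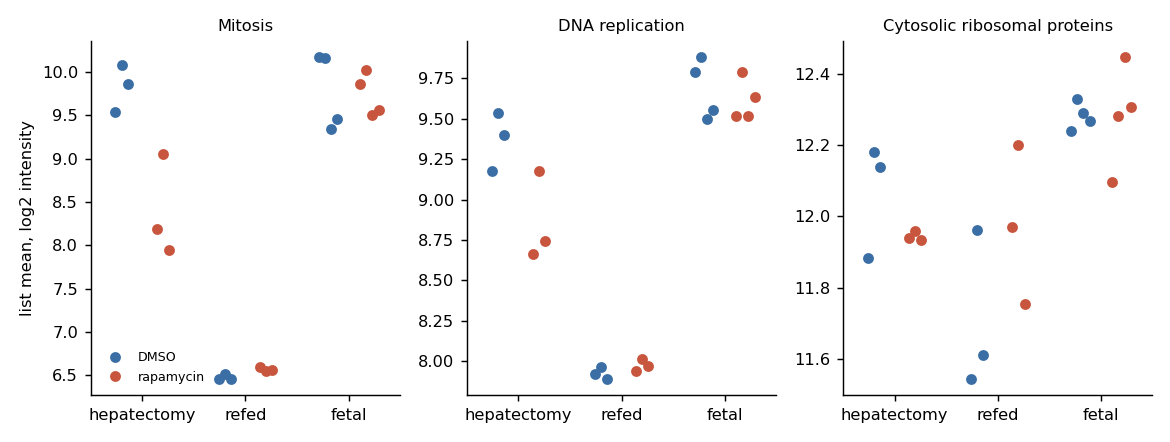
Mean log2 intensity of the mitosis, DNA replication and cytosolic ribosomal protein lists on each total RNA array, by model and treatment (1 point per liver; vertical scales differ between panels). Mitosis fell from 9.54 to 10.08 with DMSO to 7.94 to 9.06 with rapamycin after hepatectomy, with refed livers at 6.46 to 6.59.

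The median difference of DNA replication genes was smaller in size. Of 55 tested, 9 fell (16.4%, beside 3.51% of all genes) and 0 rose, with a median of -0.51. The list mean was 9.18, 9.54 and 9.40 in DMSO livers and 8.66, 9.18 and 8.74 in rapamycin livers, so rapamycin 2 stood level with DMSO 1. Nucleotide supply gave 4 of 14: the ribonucleotide reductase subunits Rrm2 (-1.24) and Rrm1 (-0.95), thymidine kinase Tk1 (-1.04) and the dUTPase gene Dut (-1.01). Levels of Rrm2, as log2 intensity, were 13.15, 13.34 and 13.07 under DMSO and 11.61, 12.45 and 11.77 under rapamycin. Its groups did not overlap. Polymerases and fork proteins gave 4 of 21, namely the clamp loader subunits Rfc4 (-1.14) and Rfc5 (-0.91), Pold2 (-0.78) and Rpa3 (-0.51). Origin licensing and firing gave 1 of 20, Gins4 (-0.99). The replication clamp gene Pcna was at 10.77, 10.94 and 10.89 with DMSO and 9.97, 10.87 and 10.20 with rapamycin. Its groups overlapped, and its difference was -0.52 ± 0.24 (adjusted p = 0.215). The list gave 15 falls without DMSO 1, 21 without rapamycin 2 and 0 in each of the other omissions.

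Regulators of G1 and S phase moved in part. Of 28 tested, 4 fell (14.3%, beside 3.51% of all genes). They were cyclin A2 (Ccna2, -1.82) of S and G2, the E2F family members E2f5 (-1.21) and E2f8 (-0.99), and Tob1 (-0.37), an antiproliferative gene. Ccnd1 had log2 intensities of 10.86, 11.96 and 12.19 in DMSO livers 1 to 3 and 12.05, 12.08 and 11.74 in rapamycin livers 1 to 3. Cyclin D1 is the mitogen-driven G1 cyclin. Apart from DMSO 1 these values lay within 0.5 of each other, the groups overlapped, and the difference was 0.28 ± 0.345 (adjusted p = 0.645). Cyclin E1 (Ccne1) differed by -0.62 ± 0.228 and Myc by 0.67 ± 0.234 (adjusted p = 0.129 and 0.113), and neither passed. Myc was at 8.81, 9.57 and 9.07 with DMSO and 10.22, 9.63 and 9.59 with rapamycin, with no overlap. The p21 gene Cdkn1a differed by -0.61 ± 0.222 (adjusted p = 0.125). Of 15 p53 targets, Ccng1 (-0.83) and Tp53inp1 (-0.55) fell (13.3%). Of 14 DNA repair genes 4 fell (28.6%): Parpbp (-2.07), Fancd2 (-1.49), Bard1 (-1.15) and Fanca (-0.86), all of homologous recombination or crosslink repair.

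Chromatin and nuclear genes also held falls and no rise. Of 26 chromatin and lamina genes 4 fell (15.4%, beside 3.51% of all genes, list median -0.49). These were the histone variant H2az1 (-1.05), the histone chaperones Asf1b (-1.04) and Nasp (-0.82), and lamin B1 (Lmnb1, -0.65). Of 25 genes of nuclear transport and RNA processing 3 fell (12%, median -0.55). They were the nucleoporins Nup205 (-0.67) and Nup85 (-0.64), and Ranbp1 (-0.59), a cofactor of the Ran cycle. Without DMSO 2, DMSO 3, rapamycin 1 or rapamycin 3 these lists gave 0 falls each.

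Genes of serine synthesis also held large falls. The log2 intensity of Psat1 was 10.55, 10.82 and 11.31 with DMSO and 9.04, 9.06 and 9.0 with rapamycin, livers 1 to 3 in order. Psat1 encodes phosphoserine aminotransferase, the second enzyme of serine synthesis. The 3 rapamycin livers agreed within 0.06, and all DMSO livers were above them. The difference was -1.86 ± 0.187 (SE; 3.63-fold lower; adjusted p = 0.00099), and the adjusted p was at most 0.00979 over the omissions and 0.0188 with the 6 arrays alone. With DMSO, Phgdh stood at 9.65, 10.32 and 10.09 (log2 intensity), and with rapamycin at 8.78, 8.16 and 8.57. Phgdh, the first enzyme, fell by 1.51 ± 0.226, again with no overlap, though here rapamycin 2 was the lowest liver and not the highest. Psph, the last enzyme of the pathway, fell by 0.75 ± 0.181, so that all 3 enzymes of the route from 3-phosphoglycerate fell. In the 30 genes of serine and one-carbon metabolism these were joined by cystathionine beta-synthase, Cbs (-0.54), and 1 gene rose, the liver methionine adenosyltransferase Mat1a (0.39). The falls were 13.3% of the list, beside 3.51% of all genes. The list median was -0.06, with 0.01 under cyclic loess scaling and 0.02 without rapamycin 1. Without DMSO 2, DMSO 3, rapamycin 1 or rapamycin 3, Psat1 alone still passed.

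Psat1, Phgdh and Psph are also targets of ATF4, the transcription factor of the amino acid and stress response that mTOR complex 1 can raise. Of 33 ATF4 targets tested 5 fell (15.2%, beside 3.51% of all genes). The other 2 were Trib3 (-0.98), a pseudokinase, and alanine aminotransferase Gpt2 (-0.95). The list median was -0.24. Asparagine synthetase (Asns) differed by -0.63 ± 0.232 and the stress factor Ddit3 by -0.36 ± 0.131, and neither passed (adjusted p = 0.127 and 0.126). Of 27 amino acid transporter genes none passed in either direction. The composite element TGATGNAA, searched on both strands, occurred in 8 of 29 promoters of the list (27.6%) and in 2.19% of promoters of tested genes. The list was made of ATF4 targets, so this excess follows largely from its choice. Members that fell and members that did not were not separated. Of 10 polyamine genes Amd1, S-adenosylmethionine decarboxylase, fell by 0.87 ± 0.145. It was at 9.76, 9.64 and 9.95 with DMSO and 8.88, 8.86 and 9.0 with rapamycin and passed with the 6 arrays alone (adjusted p = 0.041).

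Of 41 tested genes of the mTOR pathway, which rapamycin inhibits, 2 fell (4.88%, beside 3.51% of all genes) and 0 rose: Sesn3 (-0.61), a sestrin that restrains mTOR complex 1, and the cap-binding factor Eif4e (-0.56). Mtor itself was at 10.27, 10.21 and 10.36 with DMSO and 10.23, 10.16 and 10.17 with rapamycin, a difference of -0.09 ± 0.0883. Rps6 (-0.11), Rps6kb1 (0.00) and Eif4ebp1 (-0.32), whose phosphorylated proteins are the usual readouts of the kinase, did not pass, with adjusted p-values of 0.556, 0.988 and 0.0608. Fkbp1a, which encodes the binding protein of the drug, differed by -0.10 ± 0.119. Among 11 immunophilin and calcineurin genes Rcan2, a calcineurin regulator, rose by 1.15 ± 0.233. mRNA abundance does not report the activity of a kinase.

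The lists for protein synthesis, folding and respiration are read against the 3.51% of all genes that fell. Of 68 cytosolic ribosomal protein genes 0 passed in either direction, with a median of -0.13. The median was -0.20 without DMSO 1 and -0.06 without DMSO 2. Their list mean was 11.88, 12.18 and 12.14 in DMSO livers and 11.94, 11.96 and 11.93 in rapamycin livers, which overlapped through DMSO 1. Of 68 mitochondrial ribosomal protein genes 9 fell (13.2%) and 0 rose (median -0.23), the largest falls being Mrps27 (-0.86), Mrps22 (-0.76), Mrpl45 (-0.67) and Mrpl38 (-0.65). Mrps27 gave 9.93, 10.31 and 10.19 on the DMSO arrays and 9.36, 9.29 and 9.20 on the rapamycin arrays, in log2 intensity. Mrps27 showed no overlap. The mitochondrial ribosomal list gave 17 falls without DMSO 1, 8 without rapamycin 2 and 0 in the other omissions. Of 53 ribosome biogenesis genes the helicase Ddx47 (-0.34) and the methyltransferase Ftsj3 (-0.58) fell (3.77%), and of 45 translation factors Eif4e, Eif2b2 (-0.46) and Eif5 (-0.33) fell (6.67%). Of 32 aminoacyl-tRNA synthetases Nars1 (-0.48) and Yars2 (-0.67) fell (6.25%), of 44 proteasome genes Psmc4 (-0.30) and Psmg2 (-0.41) (4.55%), of 25 heat shock genes Hspd1 (-0.46) (4.00%), and of 69 genes of oxidative phosphorylation Atp5mc1 (-0.38), Ndufab1 (-0.40) and Cox7c (-0.32) (4.35%). The shares from ribosome biogenesis to oxidative phosphorylation ran from 3.77% to 6.67%, but most differences in these lists were negative. Negative were 31 of 32 synthetases (median -0.30), 52 of 53 biogenesis genes (-0.25), 24 of 25 heat shock genes (-0.31) and 42 of 44 proteasome genes (-0.22). For translation factors it was 40 of 45 (-0.17), and for oxidative phosphorylation 61 of 69 (-0.12). Over all genes tested 5315 of 10203 were negative (median -0.01). Genes of a list were measured on the same 6 arrays, so these signs are not independent. By list mean, rapamycin 2 (11.42) exceeded DMSO 1 (11.39) for oxidative phosphorylation. DMSO 1 lay close above the highest rapamycin liver for translation factors (10.71 and 10.71), proteasome (10.74 and 10.72), heat shock (10.99 and 10.96) and biogenesis (9.29 and 9.24). For synthetases these were 10.01 and 9.91. None of these lists held a rise, and none of the 25 genes of folding and secretion in the endoplasmic reticulum passed.

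**Figure D3:**
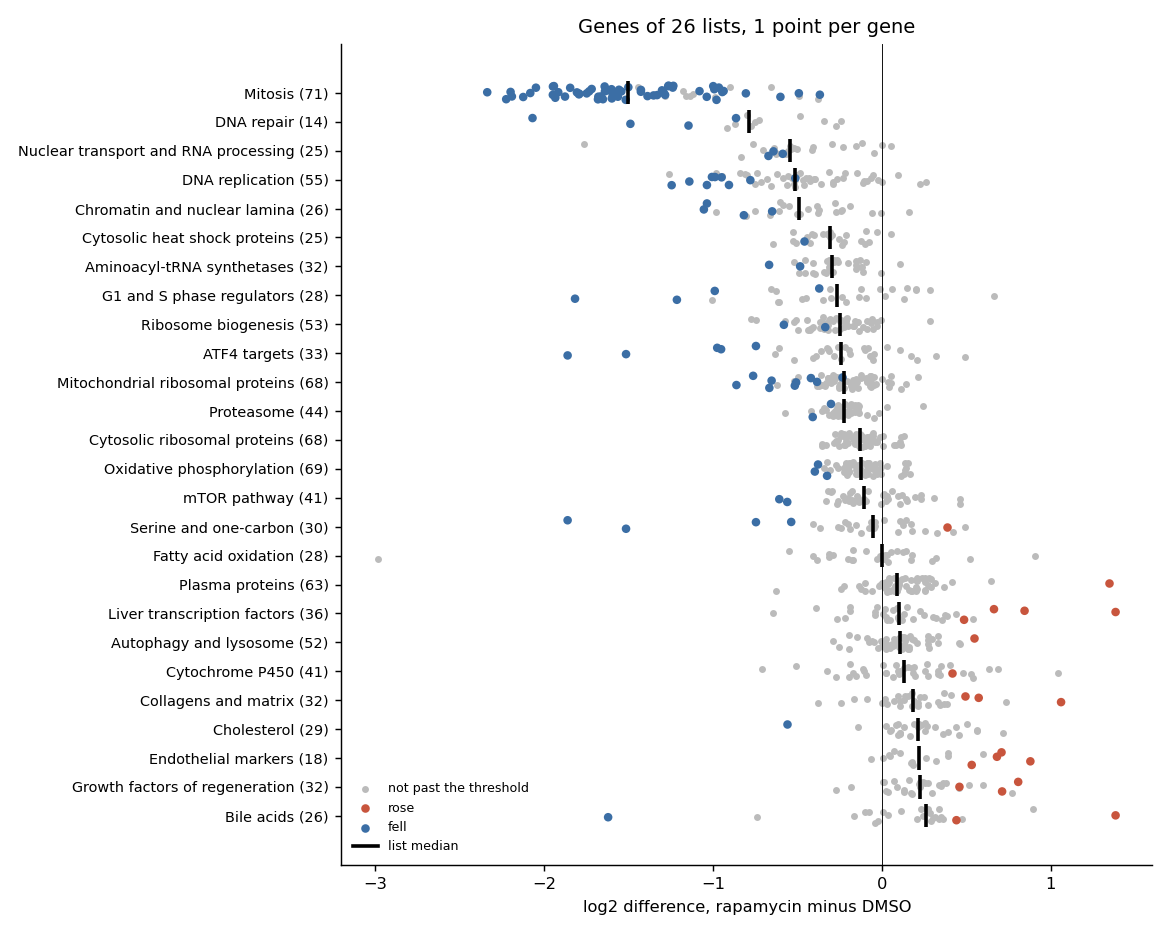
Log2 difference between rapamycin and DMSO livers for each tested gene of 26 lists (1 grey point per gene not past the threshold, blue for those that fell, red for those that rose; black bars, list medians; numbers of tested genes in brackets; vertical scatter within a list carries no meaning). Mitosis stands lowest with a median of -1.5, and the uncalled point far to the left among fatty acid oxidation genes is Acot1.

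Mocos had the smallest adjusted p of all genes tested. On the log2 scale Mocos measured 8.51, 8.18 and 8.44 in the DMSO group and 10.17, 10.17 and 10.18 in the rapamycin group. Mocos encodes the sulfurase that adds sulfur to the molybdenum cofactor, a step that aldehyde oxidase and xanthine dehydrogenase need. The 3 rapamycin livers were nearly equal and all lay at least 1.5 above the highest DMSO liver. The difference was 1.80 ± 0.112 (SE; 3.47-fold; adjusted p = 1.84e-05), the adjusted p was at most 0.000324 over the omissions, and it was 0.00262 with the 6 arrays alone. Refed livers spread more widely in Mocos, at 9.68, 7.54 and 9.29 with DMSO and 9.56, 8.08 and 7.73 with rapamycin. The other 10 tested genes of the cofactor and its enzymes did not pass, Xdh at 0.18 ± 0.128, Suox at 0.10 ± 0.125 and Aox1 at 0.21 ± 0.714 among them. Aox1 differed widely between livers, at 11.17, 9.30 and 9.53 with DMSO and 11.73, 9.27 and 9.63 with rapamycin.

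A further pair of genes fell with little spread among livers. Levels of Nnmt, as log2 intensity, were 10.32, 10.24 and 10.43 under DMSO and 9.10, 9.36 and 9.22 under rapamycin. Nnmt, nicotinamide N-methyltransferase, uses S-adenosylmethionine to methylate nicotinamide and fell by 1.10 ± 0.104 (adjusted p = 0.000637, at most 0.00715 over the omissions). Tmem97 had log2 intensities of 12.10, 12.34 and 12.23 in DMSO livers 1 to 3 and 11.34, 11.38 and 11.38 in rapamycin livers 1 to 3. Tmem97, a sterol-responsive membrane protein known as the sigma-2 receptor, fell by 0.86 ± 0.0788 (adjusted p = 0.000637, at most 0.00715). For both genes each group was narrow and the gap between groups exceeded the range within either.

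The largest rises were smaller than the largest falls. Of the 30 largest rises, the smallest was 0.76, whereas the smallest of the 30 largest falls was 1.65. Groups did not overlap for any of the 60, which follows largely from their selection by p and size. Among the rises, 6 passed with the 6 arrays alone: Mocos, Nr0b2, Popdc2, Ror1, Pklr and Mgp. The log2 intensity of Ror1 was 10.43, 10.17 and 10.21 with DMSO and 11.40, 11.38 and 11.18 with rapamycin, livers 1 to 3 in order. Ror1, a receptor tyrosine kinase for Wnt5a, rose by 1.05 ± 0.134 (adjusted p = 0.009, 0.0216 with 6 arrays). With DMSO, Pklr stood at 10.99, 11.15 and 10.87 (log2 intensity), and with rapamycin at 12.19, 11.93 and 11.83. Pklr encodes the liver and red cell pyruvate kinase and rose by 0.98 ± 0.127, the only one of 38 glycolytic and gluconeogenic genes to pass. It passed in 4 of the 6 omissions, as Ror1 did. Both genes showed a gap between groups larger than the spread within them. Popdc2 (1.24), a cyclic AMP-binding membrane protein, and the gap junction protein Gjb2 (1.01) rose with no overlap. Among falls outside the lists, Nt5dc2 (-1.46), the centrosomal Cep128 (-1.25) and the neurotrophic factor Cntf (-0.85) passed with the 6 arrays alone.

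Bile acid genes moved in opposite directions. Nr0b2 gave 9.0, 9.06 and 9.24 on the DMSO arrays and 10.54, 10.31 and 10.61 on the rapamycin arrays, in log2 intensity. Nr0b2 encodes SHP, the nuclear receptor that represses bile acid synthesis. All rapamycin livers were more than 1 log2 unit above all DMSO livers, and it rose by 1.38 ± 0.245 (adjusted p = 0.0199). On the log2 scale Cyp8b1 measured 12.58, 12.04 and 13.16 in the DMSO group and 10.67, 11.34 and 10.90 in the rapamycin group. Cyp8b1, the 12-alpha-hydroxylase that sets the share of cholic acid, fell by 1.62 ± 0.298. Its DMSO livers spread over more than 1 unit and still lay above every rapamycin liver. Levels of Cyp7a1, as log2 intensity, were 13.05, 12.81 and 12.99 under DMSO and 11.81, 11.49 and 13.35 under rapamycin. Cyp7a1, the rate-limiting enzyme, overlapped through rapamycin 3, and its difference of -0.74 ± 0.5 did not pass (adjusted p = 0.39). The canalicular exporter Abcc2 rose (0.44). In the 26 bile acid genes these 3 calls stood beside 23 genes that did not pass, and the list median was 0.26, or 0.16 without DMSO 2. Rises were 7.69% and falls 3.85% of the list, beside 1.5% and 3.51% of all genes. Without DMSO 2, Cyp8b1 still passed and the rises did not, and none passed without DMSO 3, rapamycin 1 or rapamycin 3.

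Lists of amino acid breakdown, detoxification and lipid metabolism gave 0 to 3 calls each, beside 1.5% of all genes rising and 3.51% falling. Kmo had log2 intensities of 10.45, 9.89 and 9.61 in DMSO livers 1 to 3 and 11.15, 11.21 and 11.52 in rapamycin livers 1 to 3. Kynurenine monooxygenase, Kmo, rose by 1.31 ± 0.206, without overlap. Liver-type glutaminase Gls2 rose (0.83), and Nags, which makes the activator of the urea cycle, fell (-0.60), the remaining 24 of 27 genes not passing. Bckdha, of branched-chain keto acid oxidation, rose (0.80). Of 28 detoxification genes of the NRF2 type Gpx2 (1.04) and Nqo1 (0.76) rose (Gpx2 passed in 0 and Nqo1 in 1 of the 6 omissions), and of 41 cytochrome P450 genes Cyp2s1 (0.42) rose. Of 29 cholesterol genes Soat2, which esterifies cholesterol, fell (-0.56), while 27 of the 29 had a positive difference (median 0.21, and 0.10 without rapamycin 3). The list means of the livers overlapped, at 11.14, 10.84 and 10.73 with DMSO and 10.95, 11.02 and 11.38 with rapamycin. None of 20 fatty acid synthesis genes and none of 28 fatty acid oxidation genes passed. The oxidation median was 0.00, and it was 0.07 with cyclic loess and -0.03 with median centring, and between -0.13 without DMSO 2 and 0.08 without DMSO 3 over the omissions. Some genes that did not pass had large mean differences in which 1 liver stood apart. The acyl-CoA thioesterase Acot1, chosen after its values were seen, was at 5.89, 7.47 and 11.45 with DMSO and 5.29, 5.36 and 5.22 with rapamycin.

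Of 63 plasma protein genes only Serpina7, thyroxine-binding globulin, passed, which is 1.59% beside 1.5% of all genes rising. The log2 intensity of Serpina7 was 10.28, 9.31 and 10.22 with DMSO and 11.34, 10.89 and 11.61 with rapamycin, livers 1 to 3 in order. Serpina7 rose by 1.34 ± 0.272 with no overlap. All 21 clotting genes had a positive difference and 0 passed. Their median was 0.20, and it was 0.09 without DMSO 2 and 0.27 without DMSO 1. Albumin (Alb) differed by 0.04 ± 0.0583 and alpha-fetoprotein (Afp) by 0.12 ± 0.188, and none of 14 fetal hepatocyte genes passed. Of 36 liver transcription factors 4 rose (11.1%): Nr0b2, Onecut1 (0.84), the oestrogen receptor Esr1 (0.66) and Zhx2 (0.49), a repressor of fetal liver genes. With DMSO, Onecut1 stood at 11.43, 11.22 and 11.07 (log2 intensity), and with rapamycin at 12.33, 11.89 and 12.03. Onecut1, also called HNF6, showed no overlap. Without DMSO 1 this list gave 5 rises, without rapamycin 2 it gave 2, and in the other omissions 0.

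Lists of growth factor, hormone and other signalling genes gave 0 to 3 rises each. Of 32 genes for growth factors of regeneration 3 rose (9.4%, beside 1.5% of all genes). These were Dusp6 (0.81) and Spry1 (0.71), which damp the ERK pathway, and the receptor Fgfr2 (0.46). A positive difference was seen for 30 of the 32 (median 0.23). Dusp6 gave 11.35, 11.20 and 11.08 on the DMSO arrays and 12.14, 12.15 and 11.75 on the rapamycin arrays, in log2 intensity. Dusp6 was higher in every rapamycin liver. Hepatocyte growth factor, Hgf, differed by 0.60 ± 0.195 and its receptor Met by 0.02 ± 0.122 (adjusted p = 0.0929 and 0.921). On the log2 scale Socs2 measured 11.58, 10.21 and 11.14 in the DMSO group and 12.21, 12.02 and 12.58 in the rapamycin group. Socs2, the brake on growth hormone signalling, rose by 1.29 ± 0.337, with DMSO livers spread over more than 1 unit, and it passed in 1 of the 6 omissions. Igf1 differed by 0.13 ± 0.0649 and Igfbp1 by 0.95 ± 0.376 (adjusted p = 0.236 and 0.152). Of 30 genes for activins and TGF-beta, Tgfb2 (0.92) and Bmp6 (0.54) rose, and activin A, Inhba, differed by 1.04 ± 0.284 (adjusted p = 0.0555). In the immediate early list Klf10 (0.44) and Klf2 (0.42) rose, of 18 clock genes Npas2 (0.66) rose, and of 28 genes for Wnt signalling and zonation the stem cell receptor Lgr5 (-0.68) and Hsd17b13 (-0.73) fell while Gls2 rose. Of 52 autophagy and lysosome genes 1 rose, the kinase Ulk2 (0.54), and 41 had a positive difference (median 0.11). Without DMSO 2, DMSO 3, rapamycin 1 or rapamycin 3 none of these calls held.

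Several rises were in genes of cells other than hepatocytes. Of 18 endothelial markers 4 rose (22.2%, beside 1.5% of all genes) and 0 fell (median 0.22, or 0.34 without DMSO 1). The 4 were endomucin, Emcn (0.88), the diaphragm protein Plvap (0.71), and the receptors Tek (0.68) and Tie1 (0.53). Levels of Emcn, as log2 intensity, were 9.18, 9.08 and 8.77 under DMSO and 9.81, 9.97 and 9.89 under rapamycin. The groups were apart for Emcn. The summed endothelial level was 20567 to 24697 in DMSO livers and 26137 to 29100 in rapamycin livers, without overlap. Taken singly, 13% of all clusters were likewise higher with rapamycin and without overlap. Thrombomodulin, Thbd (0.87), and the water channel Aqp1 (1.03), both found in endothelium, also rose. Of 19 stellate cell and fibroblast markers Mfap4 (0.80) rose (5.26%), and their sum was 14615 to 15378 against 17683 to 18435. Of 32 collagen and matrix genes Mamdc2 (1.06), Fbln5 (0.57) and Timp2 (0.49) rose (9.4%), and Mgp, matrix Gla protein, rose (0.93). The part of these markers in the matrix, growth factor and receptor rises above was not tested. The lymphocyte markers summed to 7913 to 8875 with DMSO and to 9342 to 12256 with rapamycin, but the mean log2 level of the list overlapped, at 8.50, 8.32 and 8.44 against 8.39, 8.45 and 8.72. In that list 10 of 21 were tested and only Cd74 (0.48) rose, the T cell genes Cd3d, Cd3e and Cd3g lying below the intensity filter. Cd74 belongs to antigen presentation, where RT1-Da (0.89) also rose, as did the lymphocyte receptor Klrg1 (0.89). No macrophage (17 tested), granulocyte and mast cell (15), bile duct (6) or megakaryocyte (5) marker passed. Of 17 erythroid markers Tfrc, the transferrin receptor that dividing cells of many types carry, fell (-0.83). The endothelial list gave 5 rises without DMSO 1, 3 without rapamycin 2 and 0 in the other omissions, and Mfap4, Cd74 and RT1-Da each passed in 1 omission and Tfrc in 0.

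The rapamycin difference after hepatectomy was tested against that in refed liver, where DMSO and rapamycin were given without surgery. For 56 of 10860 clusters (0.516%) the difference after hepatectomy was not equal to that after refeeding (limma on all 40 arrays), more negative for 53 (0.488%) and more positive for 3 (0.0276%). The intensity filter of 6.7 was set on the mean over all 40 arrays. The mitosis list mean in refed liver (6.46 to 6.59) lay below it, where a fall could not be seen. No count over mitosis genes is therefore given for this test. Psat1 differed by -1.86 after hepatectomy and by 1.39 after refeeding, a difference between the models of -3.25 ± 0.324 (adjusted p = 2.2e-07). Phgdh differed by -1.51 after hepatectomy and by 0.95 after refeeding, a difference between the models of -2.47 ± 0.347 (adjusted p = 0.000242). Both serine pathway genes thus had differences of opposite sign in the adult models, though neither passed within refed liver (adjusted p = 0.214 and 0.237). In the opposite direction, Ror1 differed by 1.05 after hepatectomy and by -0.58 after refeeding, a difference between the models of 1.63 ± 0.268 (adjusted p = 0.00219). The count was 1 when the arrays of the hepatectomy and refed total RNA alone were fitted, 8, 7, 8 and 4 without DMSO 2, DMSO 3, rapamycin 1 and rapamycin 3, and 100 and 192 without DMSO 1 and rapamycin 2.

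Against fetal liver only Birc5 (0.00921% of clusters) passed the test of a difference. The mitosis list mean was 9.35 to 10.17 in fetal DMSO livers and 9.50 to 10.02 in fetal rapamycin livers, and its median difference there was -0.03 beside -1.5 after hepatectomy. The erythroid markers, at a list mean of 8.0 to 8.37 after hepatectomy, stood at 11.52 to 12.33 in fetal liver, and the 2 fetal DMSO livers highest in them (12.33 and 12.29, beside 11.52 and 11.54) were the 2 highest in mitosis genes (10.17 and 10.16, beside 9.35 and 9.45). Their part in the fetal mitosis level was not tested. The Birc5 difference was -1.56 after hepatectomy and 0.01 ± 0.163 in fetal liver. The fetal dose is stated as an amount and the adult dose per body weight, so the doses differ. The Birc5 call was lost without DMSO 2, DMSO 3, rapamycin 1 or rapamycin 3, while 16 clusters passed without DMSO 1 and 70 without rapamycin 2.

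Between total and polysome RNA of the hepatectomy livers the test of a different rapamycin response passed for 0 clusters in limma, with 158 below an unadjusted p of 0.05. With the liver as a random block it also passed for 0, with 505 below that level. The total and polysome arrays share replicate numbers, and the deviations of same-numbered arrays from their group means correlated at 0.506 to 0.723 over clusters. The polysome DMSO arrays carry a time-point label that belongs to refeeding, against their titles and injection field, and the titles were followed. The smallest p-values for the difference belonged to Tpt1 (0.38 ± 0.102), Ankrd13d (0.44 ± 0.112) and Osgep (0.54 ± 0.127), total RNA higher, and to Bag1 (-0.53 ± 0.114), Trem1 (-0.55 ± 0.14) and Ap4s1 (-0.49 ± 0.148), total RNA lower, none past the threshold. The mitosis median was -1.31 in polysome RNA, Psat1 differed there by -1.92 ± 0.187 and Mocos by 1.77 ± 0.112. The cytosolic ribosomal protein median was -0.35 in polysome RNA and -0.13 in total RNA. Of these 68 genes 24 fell in polysome RNA and 0 in total RNA, though none passed the test of the difference. Over all 10203 genes tested, 397 fell in polysome RNA and 358 in total RNA.

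**Figure D4:**
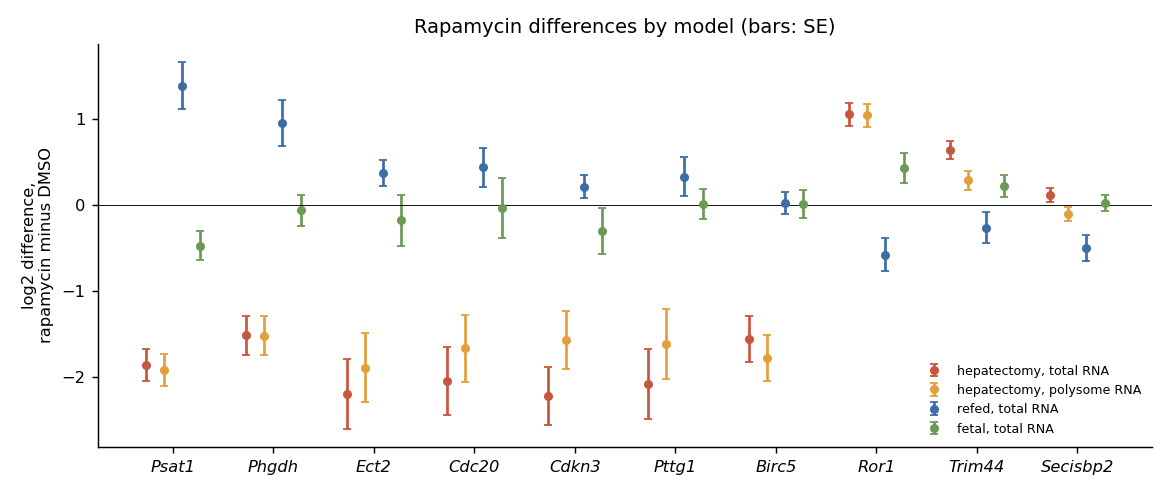
Log2 difference between rapamycin and DMSO (points; bars, SE) in hepatectomy total RNA, hepatectomy polysome RNA, refed total RNA and fetal total RNA for 10 genes whose difference after hepatectomy departed from that in refed or fetal liver. Psat1 was at -1.86 in hepatectomy total RNA, 1.39 in refed and -0.47 in fetal liver. Mitotic genes lie near or below the filter of 6.7 in refed liver, where a fall could not be seen.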

How the data were processed

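Arrays were Affymetrix Rat Gene 1.0 ST, labelled from 100 ng of RNA. The deposited series table holds linear intensities that the authors made with RMA, per the submitters' processing notes (settings and version not stated there). The deposited intensities were taken to log2 here with no pseudocount, so a value is a share within RNA and total mRNA was not measured. Of 28826 clusters, 15209 carried 1 gene symbol, 306 several and 13311 none. Clusters with a symbol and a mean over all 40 arrays of at least 6.7 (the 30th percentile of named clusters) were tested. The fit used limma 3.58.1 (R 4.3.3, lmFit, eBayes with trend, Benjamini-Hochberg over 10860 clusters) on 12 hepatectomy arrays (8 residual degrees of freedom). It treats total and polysome arrays as independent. Differences between models used all 40. On simulated data for this comparison, 58% of changes of 0.6 log2 and 92% of changes of 1 were recovered, with 4 false calls. The simulated noise was independent for each cluster and array. In the real data same-numbered total and polysome arrays deviated together (correlations 0.506 to 0.723), so these rates need not hold for them. Members and gene lists were chosen with earlier results of these data known. Named genes are the 30 largest rises and falls, up to 6 called and 4 bright uncalled genes per list role, fixed genes and the top differences between models; Acot1, Asns, Cenpa, Cep128, Cit, Cks1b, Cntf, Ddit3, Foxm1, Kif11, Kifc1, Mybl2, Nek2, Nnmt, Nt5dc2, Tmem97, Ube2s and Wee1 were chosen after their values were seen. Same-numbered DMSO and rapamycin livers were not paired (correlations of deviations 0.017, 0.192 and -0.030). The number of arrays limits precision.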

Additional observations from a re-analysis of the deposited data

Results flagged for a closer look

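The 10 genes below were singled out because their rapamycin difference after hepatectomy departed from that in another model by the test of the difference itself (limma on all 40 arrays), and their values are on the log2 scale. Against refed liver the differences between models were -3.25 ± 0.324 for Psat1, -2.47 ± 0.347 for Phgdh, -2.57 ± 0.497 for Ect2, -2.48 ± 0.549 for Cdc20, -2.44 ± 0.429 for Cdkn3 and -2.41 ± 0.443 for Pttg1, each more negative after hepatectomy. They were 1.63 ± 0.268 for Ror1, 0.90 ± 0.205 for Trim44 and 0.61 ± 0.147 for Secisbp2, each more positive after hepatectomy. Trim44 is a deubiquitinase-like protein of the TRIM family, and its own differences were 0.64 after hepatectomy and -0.27 after refeeding. Secisbp2, which lets ribosomes read selenocysteine codons, differed by 0.11 and -0.50, and the first of these did not pass (adjusted p = 0.445). Against fetal liver the difference for Birc5 was -1.57 ± 0.282. For Ect2, Cdkn3 and Pttg1 the refed DMSO means were 5.35, 5.21 and 5.93, below the intensity filter of 6.7, and for Cdc20 the mean was 6.74, near it. A fall in refed liver could not be seen at such levels.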

How the results depend on the processing

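For named genes, 1895 combinations of gene and alternative kept the side of the threshold, 877 lost the call, 15 gained one and 0 called genes changed direction. For the rapamycin comparison after hepatectomy the clusters called, rising and falling were 217, 26 and 191 when all 40 arrays shared the spread, 14, 6 and 8 with the 6 arrays alone, and 1246, 373 and 873 with the replicate number as a replicate block. Omitting single livers gave 4 to 847 called, 1 to 259 rising and 3 to 588 falling. The cause of these differences in count was not tested. The smaller fits had fewer arrays and residual degrees of freedom, equally so for each omission of a single liver. The difference from refed liver gave 29 clusters with cyclic loess, 91 with a filter at the 50th percentile, 1 with the 2 models' total RNA arrays alone, 654 with the replicate block, and 4 to 192 over the omissions. The difference from fetal liver gave 0 with cyclic loess, with median centring, with no filter on dim clusters and with the 2 models' arrays alone (limma; 664 clusters had an unadjusted p below 0.05 in the reported setting), 3 with a pseudocount of 16, 175 with the replicate block and 0 to 70 over the omissions. Medians of the lists for amino acid breakdown, fatty acid oxidation, immunophilins, interferon and antigen presentation, serine and one-carbon metabolism, Wnt and zonation, and macrophage markers lay near 0 and changed sign with cyclic loess or median centring.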

Other observations

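Txnip, Fbxo32 and Pink1, which are in none of the lists, were chosen after their values were seen. Txnip, an inhibitor of thioredoxin that glucose induces, had log2 intensities of 10.87, 10.61 and 10.95 with DMSO and 11.61, 11.47 and 11.56 with rapamycin. It passed in 3 of the 6 omissions of single livers. Fbxo32, a ubiquitin ligase subunit known from muscle atrophy, rose by 0.75 and Pink1, a kinase of mitochondrial quality control, by 0.73, passing in 2 and 1 omissions. Il1rn, the interleukin 1 receptor antagonist, rose by 0.83 as the one of 28 acute phase genes to pass. Diablo, a mitochondrial activator of apoptosis, fell by 0.59 as the one of 22 apoptosis genes to pass.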
